A study of Danio rerio with 6 samples.

Results

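The 10 genes described here encode the proteins that bind, make and break down retinoic acid. They comprise the cellular retinoic acid binding proteins *crabp1a*, *crabp1b*, *crabp2a* and *crabp2b*, the retinaldehyde dehydrogenases *aldh1a2* and *aldh1a3*, the retinoic acid hydroxylases *cyp26a1*, *cyp26b1* and *cyp26c1*, and the retinaldehyde reductase *dhrs3a*. They were chosen by name from the 23025 genes listed in the count table of the series, all 10 were listed, and all 10 passed the filter on low counts that left 20463 genes. RNA came from pools of zebrafish hindbrains dissected at 48 hours post fertilization (hpf), with 3 libraries from homozygous *gas6*-/- mutants and 3 from wildtype control embryos. *gas6* encodes a secreted ligand of receptor tyrosine kinases. Both lines carried the *olig2:EGFP* transgene, in which the *olig2* regulatory region drives a green fluorescent protein that guided the dissection, so the control is itself a transgenic line. The mutants descend from a single CRISPR/Cas9 founder that passed on several frameshift alleles just after the start codon. The labels do not say which allele the libraries carry. Nor do they say whether the libraries of a genotype came from separate pools, so p-values measure only the spread between these libraries.

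Retinoic acid is made from vitamin A in steps. Retinol is oxidized to retinaldehyde, the reverse step is catalysed by Dhrs3 reductases, Aldh1a enzymes oxidize retinaldehyde to retinoic acid, and Cyp26 enzymes of the cytochrome P450 family convert retinoic acid to inactive products. Within the cell retinoic acid is carried by Crabp proteins, and in the nucleus it binds heterodimers of retinoic acid receptors (Rar) and retinoid X receptors (Rxr). In the vertebrate embryo retinoic acid from the mesoderm beside the caudal hindbrain, together with Cyp26 activity in the hindbrain itself, patterns the rhombomeres and sets the expression of anterior Hox genes.

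The libraries held 18376627 to 27025868 counts. *gas6* itself was at 36.8 to 42.9 CPM in wildtype, compared with 4.24 to 5.47 CPM in mutant libraries, so the targeted gene separated the labelled genotypes. CPM is the usual depth-scaled read count, here taken relative to the TMM-scaled (effective) size of each library. The hindbrain label was checked with 14 hindbrain markers, *hoxb1a*, *egr2b* and *mafba* among them. All 14 were detected, and their summed level was 1181 to 1412 CPM in wildtype and 1019 to 1091 CPM in mutant libraries. RNA of lens markers was present as well, and unequally. The 13 lens markers summed to 1.78 to 40.6 CPM in wildtype and 519 to 1224 CPM in mutant libraries, with wildtype library 3 the highest of its genotype. The source of this RNA was not tested.

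Of the 10 genes, 6 differed between genotypes at an adjusted p-value under 0.05 (edgeR quasi-likelihood test, Benjamini-Hochberg adjustment over all genes tested), against 33.3% of all genes tested. Without mutant library 1 the number was 4, where 24.9% of all genes were called, and without mutant library 2 it was 4, where 22.5% were. One of the 6, *crabp1a*, was higher in *gas6* mutants, where 16.7% of all genes were called higher. The other 5, *crabp1b*, *crabp2a*, *crabp2b*, *cyp26c1* and *dhrs3a*, were lower, against 16.6% of all genes. A change of more than 2-fold was seen only for *crabp1a* and *crabp2a* among the 10 (9.65% of all genes were called and changed more than 2-fold, 6.06% higher and 3.59% lower). In 8 of the 10 the levels of the genotypes did not overlap, which was the case for 49% of all genes tested, 3 with the mutants above (24.8% of all genes) and 5 with the mutants below (24.2%). The median log2 fold change over the 10 genes was -0.31, beside 0.02 over all genes tested, and the median absolute log2 fold change was 0.42 beside 0.31. In tissue of this kind fewer expressing cells and less RNA per cell cannot be told apart. Log2 fold changes are mutant minus wildtype throughout.

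**Figure D1:**
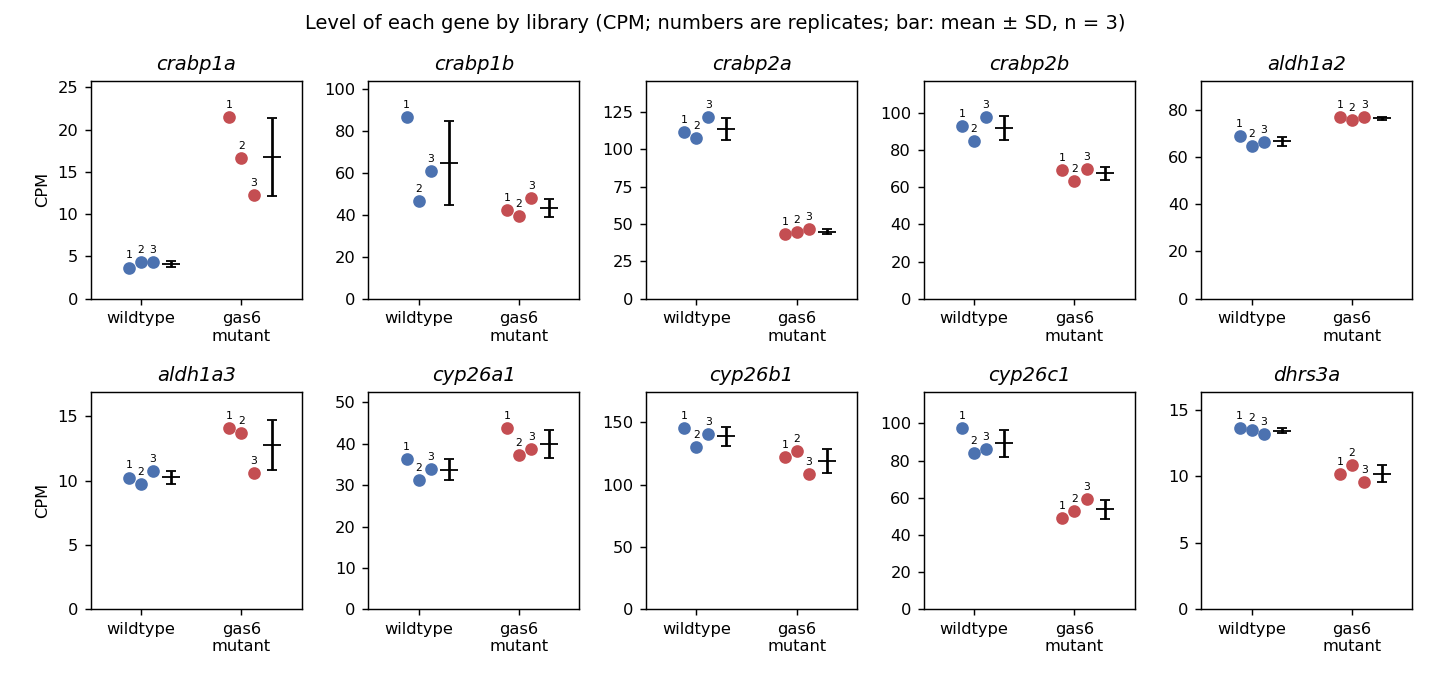
Level of each of the 10 genes in CPM (y axis, from 0) in the 3 wildtype (blue) and 3 *gas6* mutant (red) libraries. Points are libraries with their replicate number, and the bar gives the mean ± SD (n = 3). *crabp1a* lies between 12.3 and 21.4 CPM in the mutants and at most 4.38 CPM in wildtype, *crabp2a* lies at 46.8 CPM or less in the mutants and at 107 CPM or more in wildtype, and the genotypes overlap for *crabp1b* and *aldh1a3*.

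The binding proteins included both genes that changed more than 2-fold, and these moved in opposite directions. Crabp proteins are small cytosolic carriers; in mammalian cells Crabp2 hands retinoic acid to its nuclear receptor, and Crabp1 is linked to its breakdown. *crabp1a* had the lowest wildtype counts of the 10 genes, with 81, 102 and 94 counts in wildtype libraries 1 to 3 against 423, 464 and 339 counts in mutant libraries 1 to 3, the order used below. This corresponds to 3.69, 4.28 and 4.38 CPM in wildtype against 21.4, 16.6 and 12.3 CPM in *gas6* mutants. Every mutant library was above every wildtype library, and the mutant libraries differed among themselves more than the wildtype libraries did, with a coefficient of variation of 27.4% against 9.1%. The mean rose from 4.12 CPM ± 0.375 (SD, n = 3) to 16.8 CPM ± 4.59 (SD, n = 3), a fitted 4.05-fold increase (log2 fold change 2.02, SE 0.20, adjusted p = 2.4e-05).

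*crabp2a* moved the other way. Its levels were 112, 107 and 122 CPM in wildtype compared with 43.5, 44.7 and 46.8 CPM in the mutant libraries. The libraries lay close together within each genotype, and the gap between genotypes was 60.7 CPM. The mean fell from 114 CPM ± 7.21 (SD, n = 3) to 45.0 CPM ± 1.69 (SD, n = 3), which is 39.6% of the wildtype level (log2 fold change -1.34, SE 0.10, adjusted p = 2.12e-06). The gene was among the differentially expressed genes taken up for RT-qPCR, which was not analysed here.

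*crabp2b*, the paralogue of *crabp2a*, was at 93.1, 84.8 and 97.6 CPM in wildtype, compared with 69.4, 63.5 and 69.6 CPM in *gas6* mutants. All mutant libraries were again below all wildtype libraries, by at least 15.2 CPM, but the decrease was smaller (to 73.5% of wildtype, log2 fold change -0.44, SE 0.10, adjusted p = 0.00493). The 95% intervals of the log2 fold changes of the paralogues, -1.55 to -1.12 for *crabp2a* and -0.66 to -0.23 for *crabp2b*, did not overlap. Reads of *crabp2a* per read of *crabp2b* went from 1.2, 1.27 and 1.25 in wildtype to 0.626, 0.705 and 0.673 in the mutant libraries.

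*crabp1b* was the most variable gene of the 10 in wildtype, at 86.5, 46.7 and 61.2 CPM, whereas the mutant libraries had 42.3, 39.4 and 48.2 CPM. The genotypes overlapped, since mutant library 3 lay above wildtype library 2. The decrease passed the threshold (log2 fold change -0.58, SE 0.18, adjusted p = 0.0277), but its size rested on wildtype library 1. Without that library the log2 fold change was -0.32 with an adjusted p of 0.0851. The call was also lost without mutant library 1 (-0.56, adjusted p = 0.0739) and without mutant library 2 (-0.52, adjusted p = 0.105), where the adjusted p-value spanned 0.00269 to 0.105 across the 6 leave-one-out fits.

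Together the crabp genes took fewer reads in the mutants. Their summed level was 295, 243 and 285 CPM in wildtype against 177, 164 and 177 CPM in the mutant libraries. The composition changed as well. The share of crabp reads that came from *crabp1a* was 1.52% ± 0.256 (SD, n = 3) in wildtype and 9.73% ± 2.62 (SD, n = 3) in *gas6* mutants, while the share of *crabp2a* was 41.6% ± 3.3 (SD, n = 3) and 26.1% ± 1.36 (SD, n = 3). Reads of *crabp1b* outnumbered those of *crabp1a* by 10.9 to 23.5 times in wildtype libraries and by 1.97 to 3.93 times in mutant libraries. These are shares of reads that were not corrected for transcript length, so they are compared between libraries and not between genes.

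**Figure D2:**
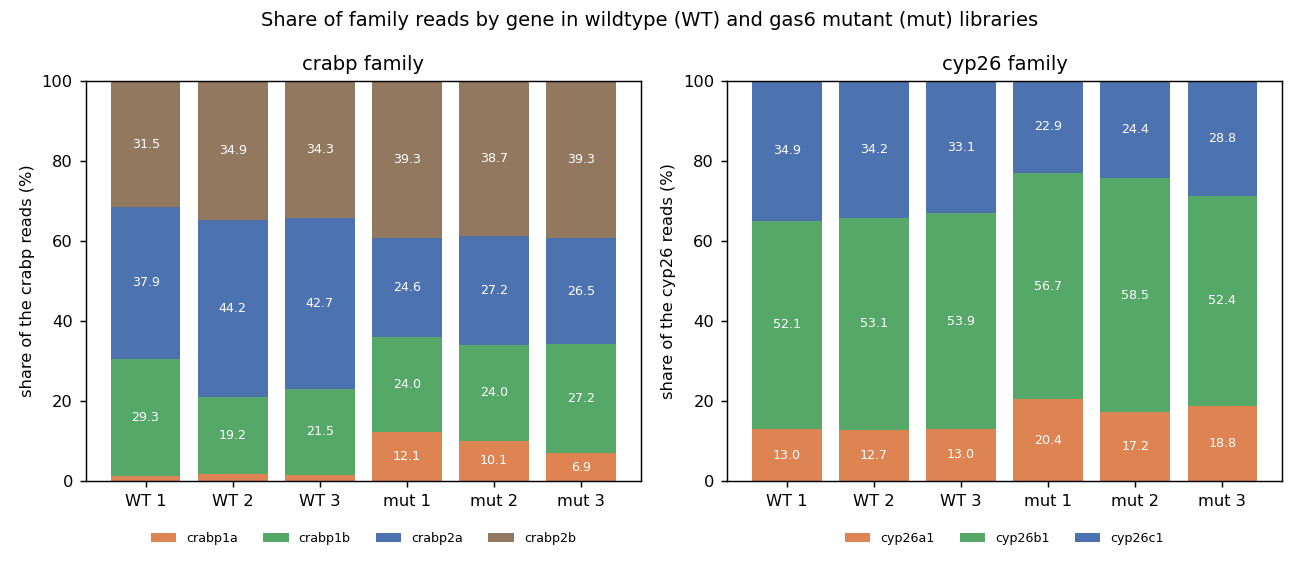
Share of the reads of the crabp family (left) and of the cyp26 family (right) that came from each gene, in percent (y axis), in the 3 wildtype (WT) and 3 *gas6* mutant (mut) libraries (x axis). The share of *crabp1a* rises from 1.52% to 9.73% of crabp reads on average, that of *crabp2a* falls from 41.6% to 26.1%, and that of *cyp26c1* falls from 34.1% to 25.3% of cyp26 reads.

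The enzymes of retinoic acid synthesis differed little. Aldh1a2 is the main source of retinoic acid in the early embryo, where it is made in the mesoderm beside the hindbrain and spinal cord. *aldh1a2* was at 68.7, 64.7 and 66.3 CPM in wildtype, compared with 76.8, 75.5 and 76.7 CPM in *gas6* mutants. The mutant libraries lay within 1.35 CPM of each other and all lay above the wildtype libraries, by at least 6.73 CPM. The difference did not pass the threshold (log2 fold change 0.20, 95% interval 7.43e-05 to 0.39, SE 0.09, adjusted p = 0.113).

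*aldh1a3*, which in vertebrate embryos is known from the ventral retina, was at 10.2, 9.75 and 10.8 CPM in wildtype, compared with 14.1, 13.7 and 10.6 CPM in *gas6* mutants. Mutant library 3 fell within the wildtype range and the other mutant libraries above it (log2 fold change 0.32, 95% interval 0.01 to 0.63, SE 0.14, adjusted p = 0.104). Without mutant library 3 the log2 fold change was 0.44 and passed (adjusted p = 0.036, in a span of 0.036 to 0.296 across the 6 leave-one-out fits). With all 6 libraries neither synthesis gene passed in edgeR with TMM scaling, in DESeq2 or in limma voom (Benjamini-Hochberg adjustment). The unadjusted edgeR p-value of both was under 0.05 (0.0499 for *aldh1a2* and 0.0449 for *aldh1a3*). Scaled by library totals both passed in edgeR, *aldh1a2* with a log2 fold change of 0.34 (adjusted p = 0.0135) and *aldh1a3* with 0.47 (adjusted p = 0.038); that scaling moved the median of all genes to 0.16.

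Among the breakdown enzymes the 3 paralogues did not move together. All of them oxidize retinoic acid, and in the zebrafish hindbrain *cyp26b1* and *cyp26c1* are known from the rhombomeres. *cyp26c1* was at 97.5, 84.1 and 86.1 CPM in wildtype, compared with 49.2, 52.8 and 59.4 CPM in *gas6* mutants. The genotypes were 24.7 CPM apart at their nearest, and the mean fell to 60.3% of wildtype (log2 fold change -0.73, SE 0.11, adjusted p = 0.000386). Mutant library 3 was the highest of its genotype, and the leave-one-out log2 fold changes lay between -0.81 and -0.67.

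*cyp26b1* was at 145, 131 and 140 CPM in wildtype, compared with 122, 127 and 108 CPM in *gas6* mutants. The ranges did not meet, being 3.82 CPM apart, but the decrease did not pass (log2 fold change -0.22, 95% interval -0.44 to -0.01, SE 0.10, adjusted p = 0.105). *cyp26a1* lay in the opposite direction, at 36.2, 31.3 and 33.9 CPM in wildtype, compared with 43.8, 37.2 and 38.8 CPM in the mutants. Here the genotypes were 0.965 CPM apart, and the difference did not pass either, except with library totals, where it was 0.39 (adjusted p = 0.0194) (log2 fold change 0.24, 95% interval 0.00464 to 0.47, SE 0.11, adjusted p = 0.107). The interval of *cyp26c1*, from -0.96 to -0.49, did not overlap those of the other paralogues.

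The ratios within the family showed this in each library. There were 2.69, 2.69 and 2.54 reads of *cyp26c1* per read of *cyp26a1* in wildtype against 1.12, 1.42 and 1.53 in the mutant libraries. For *cyp26b1* over *cyp26a1* wildtype had ratios of 4.01, 4.18 and 4.14, and the mutants of 2.78, 3.41 and 2.79. The share of cyp26 reads from *cyp26b1* was close in the genotypes, at 53.0% ± 0.909 (SD, n = 3) and 55.9% ± 3.11 (SD, n = 3). Summed cyp26 levels were 246 to 279 CPM in wildtype and 206 to 217 CPM in *gas6* mutants, while summed aldh1a levels were 74.5 to 79 CPM and 87.3 to 90.9 CPM. Reads of breakdown enzymes per read of synthesis enzymes were therefore 3.53, 3.30 and 3.38 in wildtype against 2.36, 2.43 and 2.36 in the mutant libraries. The ratio joins a decrease that passed in *cyp26c1* with differences in the other enzymes that did not pass, and it was not tested.

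**Figure D3:**
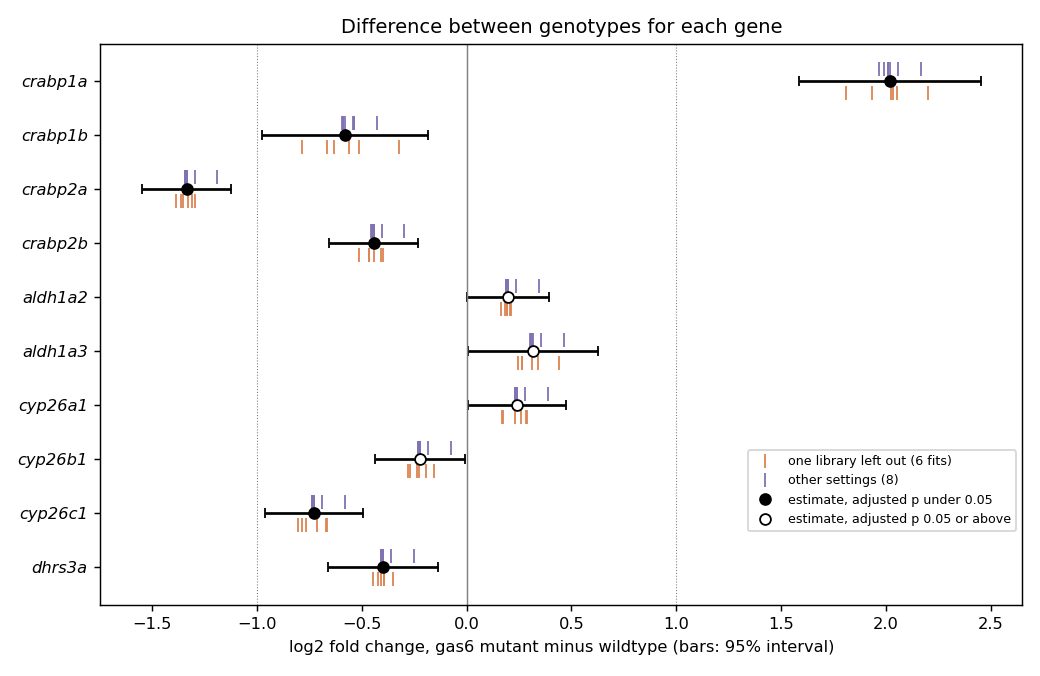
Log2 fold change of each gene, *gas6* mutant minus wildtype (x axis), with its 95% interval; filled points passed an adjusted p-value of 0.05 and open points did not. Ticks above each point are 8 other settings and ticks below it the 6 fits without one library: *crabp1a* stays between 1.81 and 2.20 and *crabp2a* between -1.39 and -1.19, and the 4 open points have intervals that end near 0.

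*dhrs3a* encodes a short-chain reductase that returns retinaldehyde to retinol and so lowers the supply for synthesis. It was at 13.6, 13.5 and 13.2 CPM in wildtype, compared with 10.2, 10.8 and 9.56 CPM in *gas6* mutants. The wildtype libraries were nearly alike, and all mutant libraries were lower by at least 2.36 CPM (log2 fold change -0.40, SE 0.12, adjusted p = 0.0242). With 201 to 321 counts per library this call was close to the threshold. It was lost without wildtype library 3 (log2 fold change -0.42, adjusted p = 0.055) and without mutant library 1 (-0.40, adjusted p = 0.0662), 2 (-0.44, adjusted p = 0.0541) or 3 (-0.35, adjusted p = 0.0787), in a span of 0.0222 to 0.0787 across the 6 such fits. It was also lost with library totals (-0.25, adjusted p = 0.139). Its paralogue *dhrs3b* fell from 27.8 CPM ± 1.91 (SD, n = 3) to 18.9 CPM ± 0.479 (SD, n = 3) (log2 fold change -0.56, SE 0.11, adjusted p = 0.00205) and passed in each of those fits. The share of dhrs3 reads from *dhrs3a* was 32.7% ± 1.3 in wildtype and 35.1% ± 1.32 in the mutants (SD, n = 3).

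The remaining pathway was followed in lists of retinol carriers, storage and carotenoid cleavage enzymes, other oxidoreductases, nuclear receptors and receptor co-regulators. Of 36 tested genes on these lists 15 passed an adjusted p-value of 0.05, 5 higher and 10 lower in *gas6* mutants, which is 41.7% beside the 33.3% of all genes. The count was 9 without mutant library 1 and 9 without mutant library 2, fits in which 24.9% and 22.5% of all genes were called. The count without mutant library 2 includes *rbp2a* (adjusted p = 0.00406). That gene failed the filter on low counts with all 6 libraries and is not among the 36. The median log2 fold change over the 36 genes was -0.14.

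Among the retinol carriers 5 of 9 passed, 3 higher and 2 lower, beside 33.3% of all genes. Of the 3 that rose, *zgc:162946*, listed in the RefSeq gene table under the synonym stra6l, and *rbp2b* were scarce, at 0.405 CPM ± 0.205 and 1.97 CPM ± 0.259 in wildtype and 0.956 CPM ± 0.223 and 4.66 CPM ± 2.27 in the mutants (SD, n = 3). Leaving out mutant library 1, where *rbp2b* was at 7.25 CPM beside 3.68 and 3.04 CPM in the other mutant libraries, moved its log2 fold change from 1.21 to 0.77 (adjusted p 0.0101 and 0.0345). The call for *zgc:162946* (log2 fold change 1.26, SE 0.39, adjusted p = 0.0267) was lost with DESeq2 (adjusted p = 0.0857) and in 4 of 6 leave-one-out fits. This gene passed the filter on low counts through its level in the mutant libraries. *rbp4*, the third that rose, encodes the secreted plasma carrier of retinol and was at 25.1, 37.6 and 29.8 CPM in wildtype, compared with 72.6, 51.5 and 75.1 CPM in *gas6* mutants, with no overlap (log2 fold change 1.1, SE 0.17, adjusted p = 0.000452). *rbp1a*, a cellular retinol binding protein, was at 92.9, 66.5 and 79.1 CPM in wildtype, compared with 50.9, 49.0 and 50.8 CPM in the mutants (-0.66, SE 0.12, adjusted p = 0.00155). *rbp4l* fell further but at a lower level, from 4.81 CPM ± 0.870 to 2.46 CPM ± 0.473 (SD, n = 3). Its log2 fold change was -0.96 (SE 0.21, adjusted p = 0.00468), and it passed in all 14 alternatives. *stra6*, the membrane receptor for the Rbp4-retinol complex, did not pass (0.17, 95% interval -0.16 to 0.50, adjusted p = 0.414). Of 4 tested storage and cleavage genes none passed in edgeR with TMM scaling, in DESeq2 or in limma voom. One of them, *bco2a*, a carotenoid cleavage gene, had an unadjusted edgeR p-value under 0.05 (log2 fold change 0.97, adjusted p = 0.0649) and passed with library totals (1.11, adjusted p = 0.0388). Of the 6 other oxidoreductases 3 passed, beside 33.3% of all genes. *aldh8a1*, a retinal dehydrogenase in mammals, rose (log2 fold change 0.80, SE 0.22, adjusted p = 0.015), but not without wildtype library 3 or without mutant library 1 or 2, where the adjusted p was 0.0617, 0.063 and 0.0556 within 0.0101 to 0.063 across the 6 fits. The others were *dhrs3b*, given above, and *rdh10a*, which oxidizes retinol to retinaldehyde (log2 fold change -0.30, SE 0.11, adjusted p = 0.0485). The call for *rdh10a* was lost under 9 of 14 alternatives, and its adjusted p spanned 0.0159 (mutant library 3 left out) to 0.275 (scaling by library totals).

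All 10 retinoid receptor genes were tested, and 5 passed, 1 higher and 4 lower, beside 33.3% of all genes. *rxrga* had the largest change of the 10 receptors. It was at 37.1, 28.5 and 30.2 CPM in wildtype, compared with 14.4, 14.5 and 13.2 CPM in *gas6* mutants, without overlap (log2 fold change -1.18, SE 0.13, adjusted p = 3.83e-05). The other receptors that fell were *rarab* (-0.45, SE 0.12, adjusted p = 0.0112), *raraa* (-0.45, SE 0.13, adjusted p = 0.0163) and *rxraa* (-0.40, SE 0.11, adjusted p = 0.0149), and *rargb* rose (0.77, SE 0.21, adjusted p = 0.0153). *rarga*, which took 50.2% ± 1.65 (SD, n = 3) of the rar reads in wildtype, did not pass (-0.06, 95% interval -0.26 to 0.15, adjusted p = 0.673). Only 2 receptors passed without mutant library 1 (24.9% of all genes) and 2 without mutant library 2 (22.5%), *rxrga* and *rargb* in both cases. The call for *rargb* was lost without mutant library 3 (adjusted p = 0.0551) and that for *rxraa* also without wildtype library 3 (adjusted p = 0.0549), while *rxrga* passed in all 6 such fits. Among the 7 co-regulators 2 passed, near the 33.3% of all genes, and both were lower. They were *nrip1b* (-0.64, adjusted p = 0.00141), which encodes a co-repressor of nuclear receptors, and *ncoa2* (-0.32, adjusted p = 0.043). The call for *ncoa2* was lost in 5 of the 6 fits that left out one library.

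**Figure D4:**
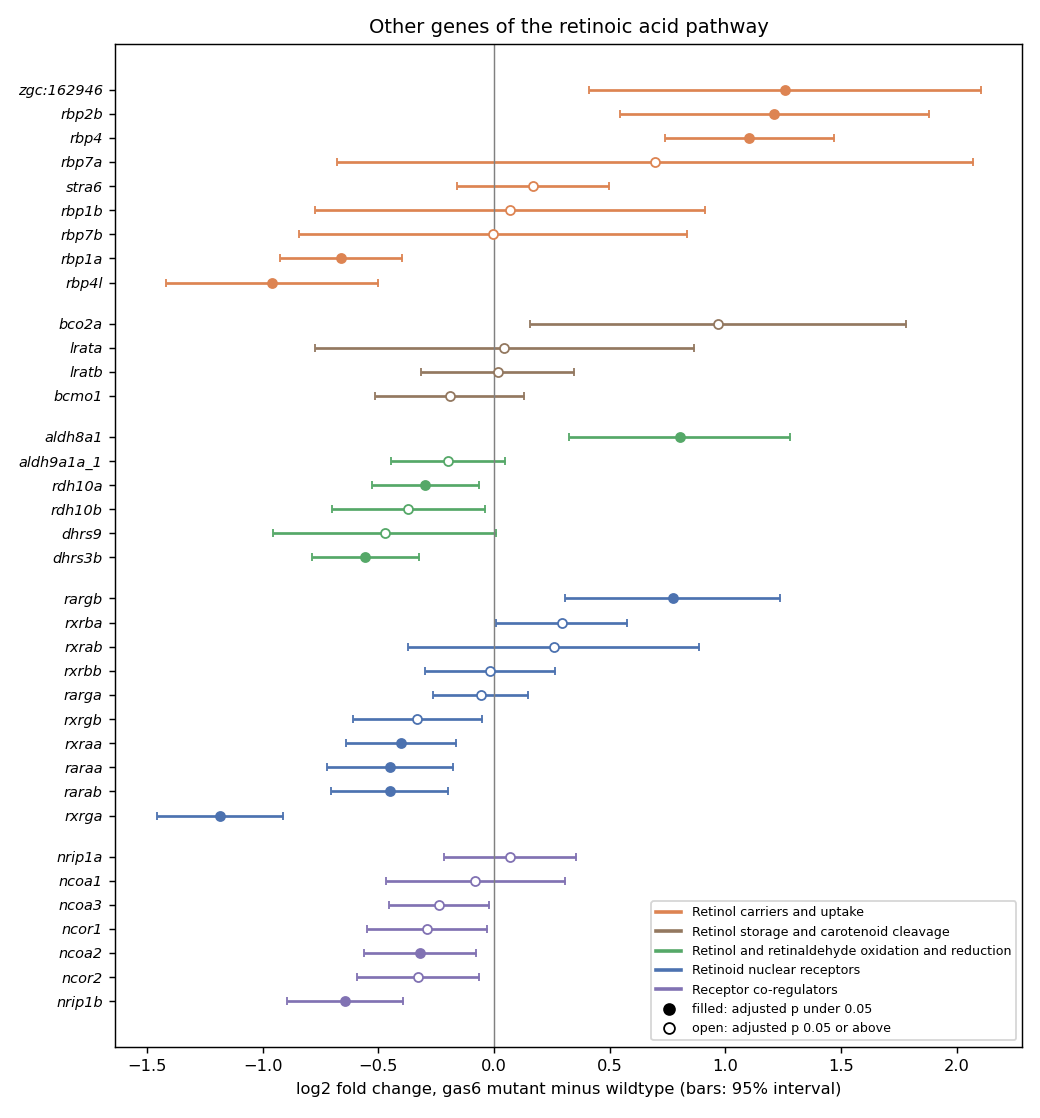
Log2 fold change of the 36 other tested genes of the retinoic acid pathway, *gas6* mutant minus wildtype (x axis), with 95% intervals, coloured by list. Filled points passed an adjusted p-value of 0.05 (5 higher and 10 lower) and open points did not; *rxrga* at -1.18 is the lowest of the receptors and *rargb* at 0.77 the highest.

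A further list held hindbrain genes linked to retinoic acid, namely Hox genes of paralogue groups 1 to 4 with *hnf1ba* and *mafba*. Not all of them need retinoic acid on its own. The paper reports that *hoxb1a* and *hoxb2a* remained expressed when retinoic acid synthesis alone was blocked in wildtype embryos. That was seen by in situ hybridization at stages earlier than here. It also reports that expression of rhombomere 4 genes was lost when synthesis was blocked in *hoxb1b* mutants. From earlier work it describes *hnf1ba* and valentino (*mafba*) as genes that do require retinoic acid. Of 14 tested genes 9 passed, 8 lower and 1 higher, beside 33.3% of all genes in either direction and 16.6% lower, and the median log2 fold change was -0.40. The count was 6 without mutant library 2, where 22.5% of all genes were called. *hoxb1a*, a gene of rhombomere 4, was at 16.9, 13.7 and 13.9 CPM in wildtype, compared with 6.13, 5.68 and 4.96 CPM in *gas6* mutants. It fell (log2 fold change -1.41, SE 0.15, adjusted p = 3.5e-05). Like *crabp2a*, it was among the genes measured again by RT-qPCR in the study, in tissue collected separately, which was not analysed here. *hoxb2a* followed with a log2 fold change of -0.78 (SE 0.11, adjusted p = 0.000285). The gene that rose was *hnf1ba*, which encodes a homeodomain factor of the caudal hindbrain, from 6.56, 5.71 and 6.15 CPM to 8.52, 9.08 and 8.76 CPM (log2 fold change 0.52, SE 0.14, adjusted p = 0.0136). This call was lost without wildtype library 2 (0.45, adjusted p = 0.0517) and without mutant library 2 (0.49, adjusted p = 0.0627), in a span of 0.00901 to 0.0627 across the 6 fits.

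Some of the 10 genes and the other pathway genes are also known from the eye, *aldh1a3* among them. The levels of markers of other tissues are therefore given beside them. All 13 lens markers, 4 of 6 tested photoreceptor markers and 9 of 12 markers of retinal progenitors and inner retina were called higher in *gas6* mutants. Of all genes 16.7% were called higher. The filter on low counts keeps a gene that is high enough in 1 genotype alone. *cryaa*, *lgsn*, *rcvrna* and *rho*, at 0.21 CPM or less in every wildtype library, passed it through the mutant libraries. These counts were therefore partly set by the filter. The lens count was 13 in each of 8 other settings, no filter among them. The photoreceptor markers *pde6c* (log2 fold change -0.72) and *opn1sw2* (-0.25) lay lower in the mutants and did not pass. Most of the photoreceptor level in the mutants came from *crx* (mean 46.6 CPM) and *otx5* (mean 28.2 CPM). The photoreceptor markers summed to 5.33, 10.8 and 5.59 CPM in wildtype against 93.0, 89.4 and 57.0 CPM in the mutant libraries, and the retinal progenitor and inner retina markers to 71.6, 94.6 and 81.4 CPM and 175, 180 and 156 CPM. With no filter on low counts 7 of the 13 photoreceptor markers listed were called in either direction, where 30.4% of all genes were called. *rho*, which encodes rod opsin, had no count in any wildtype library. Mutant library 3 was the lowest mutant library for both summed levels, and for *crabp1a* and *aldh1a3* as well. It was also the lowest for *cyp26b1* (122, 127 and 108 CPM) and *dhrs3a* (10.2, 10.8 and 9.56 CPM), which lay lower in the mutants than in wildtype. It was the highest for the lens markers (519, 669 and 1224 CPM) and for *rbp4* (72.6, 51.5 and 75.1 CPM). The lowest mutant library was library 2 for *cyp26a1* (43.8, 37.2 and 38.8 CPM) and for *aldh1a2* (76.8, 75.5 and 76.7 CPM). Of 4 ventral retina markers 2 passed and both were higher, *vax1* (log2 fold change 1.80) and *vax2* (1.87). Both were scarce, with means of 0.741 CPM in wildtype and 2.63 CPM in the mutants for *vax1*, and 0.177 and 0.673 CPM for *vax2*. The more abundant *ephb2b* (0.21, 77.2 and 89.1 CPM) and *ephb3a* (0.03, 102 and 104 CPM) did not pass. The 5 dorsal retina markers had a median log2 fold change of -0.14 and edgeR adjusted p-values of at least 0.11. Their wildtype means of 152 CPM for *efnb2a* and 95.2 CPM for *tbx2b* stood beside 2.58 CPM for *rx1*. In the paper *efnb2a* is a rhombomere 4 gene, so this list cannot show dorsal retina alone. Of 5 pigment epithelium markers 3 were lower, *dct*, *tyrp1b* and *pmela*, which pigment cells elsewhere also express, and 1, *rpe65a*, was higher. The part of eye tissue in the differences of *crabp1a*, *aldh1a3*, *aldh1a2*, *cyp26a1* and *rbp4* was not tested. Of 14 hindbrain markers tested 8 passed, 7 lower and 1 higher, beside 33.3% of all genes, with a median log2 fold change of -0.36. More than 2-fold lower were 3 of them, against 3.59% of all genes, and 0 were more than 2-fold higher. These were *egr2b* (log2 fold change -2.21, adjusted p = 2.76e-05, means of 5.56 and 1.19 CPM), *atoh1a* (-1.25, adjusted p = 9.02e-05) and *hoxb1a*, given above. The hindbrain markers did not all move together. *lhx4* rose (log2 fold change 0.78, adjusted p = 0.00016). *mafba* (0.17), *hoxa2b* (-0.10), *hoxd3a* (-0.03) and *phox2a* (-0.05) were among those that did not pass. Of these 14 markers 8 are also on the list of hindbrain genes linked to retinoic acid. *hoxb1a*, *egr2b* and *atoh1a* were among the differentially expressed genes taken up for RT-qPCR. The part of the hindbrain markers in the decreases of *crabp2a*, *crabp2b*, *cyp26c1* and *dhrs3a* was not tested. Of all genes 16.7% were called higher and 16.6% lower. Beside this stood spinal cord and posterior Hox markers (5 of 9 higher) and pharyngeal cartilage and arch markers (6 of 8 higher). Midbrain, forebrain and erythrocyte markers each had 3 of 8 higher and 1 lower. Otic vesicle markers had 2 of 9 higher and 1 lower, and endothelial and meningeal markers 1 of 8 higher and 1 lower. Skeletal muscle and somite markers summed to 24228 to 26008 CPM in wildtype and to 19272, 22513 and 39037 CPM in mutant libraries 1, 2 and 3, and the part of somite tissue, where *aldh1a2* is also known to be expressed, was not tested.

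**Figure D5:**
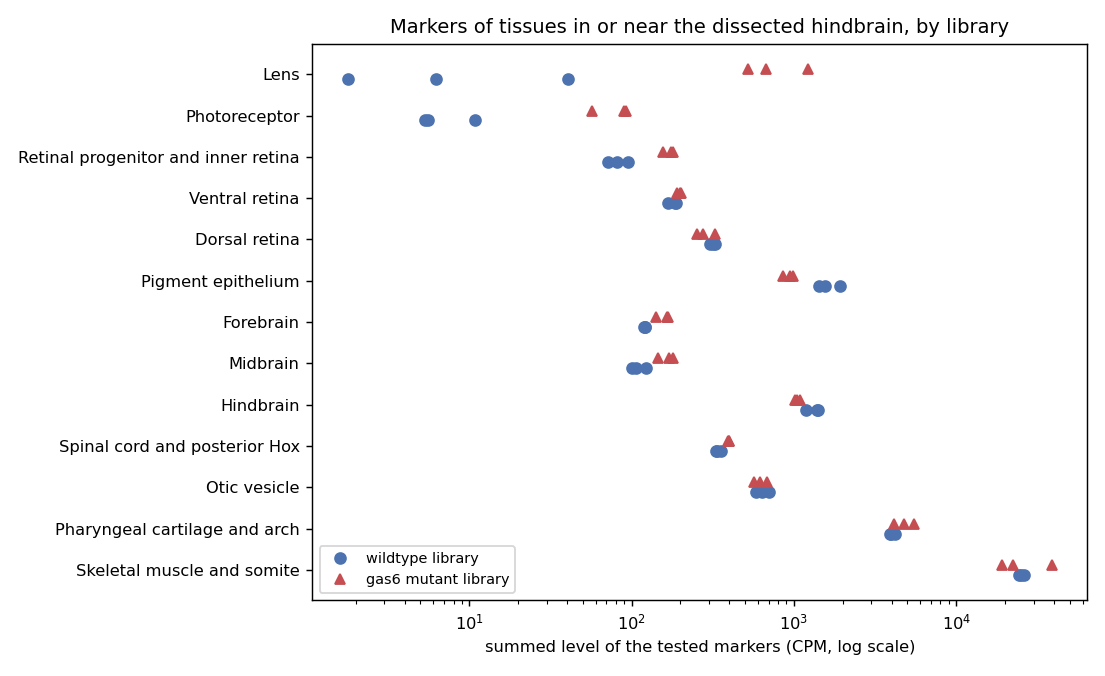
Summed level of marker genes of tissues in or near the dissected hindbrain (x axis, CPM on a log scale), 1 row per list, for the 3 wildtype (circles) and 3 *gas6* mutant (triangles) libraries. Lens markers lie at 40.6 CPM or less in wildtype and at 519 CPM or more in the mutants, photoreceptor and inner retina markers are higher in the mutants, and hindbrain markers are lower (1019 to 1091 CPM against 1181 to 1412 CPM).

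For *crabp1a* and *crabp2a*, the genes that changed more than 2-fold, the genes with the most similar profiles over the 6 libraries were sought among 13938 genes with a mean of at least 5 CPM in either genotype. Likeness was the root mean square difference of log2(CPM + 1) relative to the wildtype mean. Nearest to *crabp1a* were *agxta*, an aminotransferase gene (difference 0.13, log2 fold change 2.16), *si:dkey-162b23_4* (0.14, log2 fold change 2.12) and *zfpm2b*, a cofactor of Gata factors (0.15, log2 fold change 1.77). Nearest to *crabp2a* were *celsr2*, an atypical cadherin of planar cell polarity (difference 0.07, log2 fold change -1.35), *nin*, which encodes the centrosomal protein ninein (0.07, log2 fold change -1.39) and *ek1* (0.08, log2 fold change -1.30). Both profiles are set mostly by the difference between genotypes, so these are descriptions.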

How the data were processed

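Total RNA of dissected hindbrains was sequenced from stranded mRNA libraries. The authors deposited 1 table with estimated counts per gene and library, which were not normalized. The submitters' processing notes name RSEM 1.2.28, FastQC, DESeq2, GRCz10 and danRer7 with no role, and the paper's methods name the Dolphin web interface. The aligner and the use of strand in counting are not given in the sources used here, and no coordinates are given. Of the 10 genes, 2 had whole counts in every library. In the others the largest distance from a whole number was 0.45. The deposited table also holds the authors' log2 fold change, fold change and adjusted p-value, which were not used. No column of another sample was present.

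Estimated counts were rounded, filtered with filterByExpr (minimum count 10, minimum total 15), scaled with TMM factors and fitted with glmQLFit and glmQLFTest of edgeR 4.0.16 under R 4.3.3, with genotype as the only factor and 4 residual degrees of freedom. Benjamini-Hochberg adjustment ran over 20463 genes. The biological coefficient of variation was 12.5%. Each SE was calculated back from the log2 fold change and the F statistic of its test. The 95% intervals were set from that SE with the t distribution. They therefore hold the same information as the unadjusted p-value. The fits were tested on simulated data with known changes in few genes, evenly up and down. That simulation does not show how scaling or error rates behave where 33.3% of all genes are called, as here. Libraries of a genotype differed beyond sampling noise, with a chi-square of at least 6.99 per degree of freedom, so none was counted as a duplicate. Alternatives were DESeq2 1.42.0, limma 3.58.1 voom, other scalings, no filter, a limit of 0.01, a replicate block and leaving out each library in turn. For genes other than the 10 and *gas6*, and for the marker lists, these were run after the data had been seen.

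The 10 genes, the gene lists and the tests were chosen with earlier results of these data known. Names were matched exactly, with the dot written differently, or through synonyms in RefSeq's gene table for GRCz12tu, which matched *rbp1a* among others. Named were the 10 genes, *gas6* and the 3 nearest profiles of each gene of the 10 changed more than 2-fold. At most 15 other pathway genes and hindbrain genes linked to retinoic acid were named too. These were the receptors that passed, *rarga*, and the genes with the largest change past the threshold in each list. *rbp1a*, *rbp2a*, *rbp4l*, *dhrs3b*, *stra6*, *rdh10a*, *ncoa2*, *bco2a*, *rho* and the other photoreceptor, retina and pigment markers were named after their values were seen. So were *mafba*, *lhx4*, *hoxa2b*, *hoxd3a*, *phox2a*, *cryaa*, *lgsn* and *otx2*, and the values of *egr2b* and *atoh1a* were added then.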

Additional observations from a re-analysis of the deposited data

How the results depend on the processing

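The changes of *crabp1a*, *crabp2a*, *crabp2b* and *cyp26c1* kept their direction and passed in all 14 alternatives, and *cyp26b1* passed in none. The number of the 10 genes called was 4 to 7 over 8 other settings and 4 to 6 when one library was left out, and the number also changed more than 2-fold was 2 in each. With library totals and no scaling factor the median of all genes moved from 0.02 to 0.16, and 70.6% of called genes were higher in the mutants against 50.3% with TMM. Under that scaling *aldh1a2* (0.34), *aldh1a3* (0.47) and *cyp26a1* (0.39) passed, while *crabp1b* (-0.43) and *dhrs3a* (-0.25) did not. At a limit of 0.01, which fewer genes meet by construction, *crabp1b* (-0.58) and *dhrs3a* (-0.40) were not called. Of all genes 3831 were called in place of 6813, and of the 36 other pathway genes 6 in place of 15. Of the 14 hindbrain genes linked to retinoic acid 5 were called in place of 9. Leaving out one library gave log2 fold changes from -0.79 to -0.32 for *crabp1b*, from -0.44 to -0.35 for *dhrs3a* and from 0.25 to 0.44 for *aldh1a3*. In those fits 9 to 18 of the other pathway genes were called, counting *rbp2a* where it passed the filter on low counts.

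The replicate numbers of the titles were not taken as pairs, since libraries of the same number had correlations of their deviations of 0.02, -0.06 and 0.04. With a replicate block 6 of the 10 genes and 6359 of all genes were called, against 6 and 6813 without it. With 3 libraries per genotype the SE of the 10 log2 fold changes was 0.09 to 0.20.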
